A study of Mus musculus with 9 samples.

Results

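The potassium channel genes of mouse cerebellum were taken as every gene whose symbol begins with Kcn, without Kcnq1ot1 and without symbols ending in os or ps. Of 99 such symbols, 3 were excluded, which left 96 genes of the 55808 rows in the files. They comprised 94 genes of channel subunits and their auxiliary proteins and 2 antisense transcripts of the Kcnmb4 locus, Kcnmb4os1 and Kcnmb4os2. RNA of whole cerebellum was sequenced in 9 libraries, 3 per group. The PLX3AP mice were given 3-acetylpyridine (3-AP) after PLX3397, the 3AP mice 3-AP alone, and the control mice saline. 3-AP is a nicotinamide analogue that kills inferior olive neurons, the source of the climbing fibres of Purkinje cells, and PLX3397 blocks the CSF1 receptor, on which microglia depend. Strain, age, dose and time after 3-AP are not given in the labels. Whether each library came from its own animal is not stated, so p-values measure the spread between libraries, which may be technical. None of the 9 libraries came from mice given PLX3397 without 3-AP. An effect of PLX3397 alone and one on the response to 3-AP therefore cannot be told apart.

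Potassium channels let potassium leave the cell, which repolarises the membrane after each spike and sets the resting potential. Voltage-gated (Kv) channels open on depolarisation, calcium- and sodium-activated channels open as those ions enter, and inward rectifier (Kir) and two-pore (K2P) channels carry current near rest. In the cerebellum, Kv3 channels allow Purkinje cells to fire at high rates, Kv1 channels control basket cell terminals, and Kir4.1 in Bergmann glia and astrocytes takes up the potassium that neurons release. In microglia, the K2P channel THIK-1 (Kcnk13) sets the resting current.

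The libraries held 18452256 to 22358447 estimated counts. Markers of Purkinje cells summed to 10612 to 13052 TPM (the authors' level per transcript length) and those of granule cells to 2450 to 3014 TPM, and no sum of the hindbrain markers exceeded 3.02 TPM, so the libraries carried the markers of cerebellum. Microglia markers summed to 138 to 245 TPM in PLX3AP, 586 to 688 TPM in 3AP and 255 to 266 TPM in control. Choroid plexus markers varied within every group, from 51.8 to 3347 TPM in PLX3AP, from 1069 to 3392 TPM in 3AP and from 200.2 to 6259 TPM in control. 3AP replicate 2 stood apart in another way. In it, 31 of 16634 tested genes (0.186%) lay below 0.5 times their lowest value in the other 8 libraries (CPM + 0.5, where CPM are counts scaled to library size). Each of the other libraries had 2 to 8 such genes, with shares of 0.0361%, 0.0301% and 0.0180% in PLX3AP, 0.0240% and 0.0120% in 3AP replicates 1 and 3, and 0.0180%, 0.0180% and 0.0481% in control. The Kcn genes that were far from the rest in these libraries are described together, with and without them.

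Few potassium channel genes passed the test. In 3AP against control, the modifier subunit gene Kcng4 was higher and no other Kcn gene passed. Between PLX3AP and 3AP, the two-pore channel gene Kcnk6 was lower in PLX3AP, and the glial Kir4.1 gene Kcnj10 and the auxiliary subunit gene Kcne1l were higher. No Kcn gene passed between PLX3AP and control. Of the 96 genes, 81 had enough counts for the test, which was edgeR's quasi-likelihood test with Benjamini-Hochberg adjustment over all 16634 tested genes and calls at an adjusted p under 0.05. The other 15 had at most 70 counts over the 9 libraries together.

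Over both directions together, the shares of called Kcn genes were at or below those among all tested genes. In 3AP against control 1 of 81 was called, 1.23%, where 4.93% of all tested genes were called, 3.75% higher and 1.18% lower. Between PLX3AP and 3AP 3 of 81 were called, 3.70%, against 3.73% of all tested genes. There, 2 of 81 (2.47%) were called higher, where 0.577% of all tested genes were, and 1 of 81 (1.23%) lower, where 3.16% were. Between PLX3AP and control 0 of 81 were called, where the share over all tested genes was 0.120%, with 0.0361% higher and 0.0842% lower. In that comparison 9 of 81 (11.1%) had an unadjusted edgeR p under 0.05, against 9.35% of all tested genes. DESeq2 called 1 of 81 Kcn genes there and limma-voom 0, where they called 0.661% and 0.102% of all tested genes. Unadjusted p-values were under 0.05 for 16 of 81 (19.8%) between 3AP and control, against 17.0% of all tested genes, and for 9 of 81 (11.1%) between PLX3AP and 3AP, against 12.1%. The 3 libraries of 3AP did not overlap those of control for 17 of the 81 genes (21.0%), against 24.7% of all tested genes. PLX3AP did not overlap 3AP for 10 (12.3%), against 16.9%, and did not overlap control for 12 (14.8%), against 14.3%. The median log2 fold change of the tested Kcn genes was -0.044 between 3AP and control, -0.001 between PLX3AP and 3AP, and -0.045 between PLX3AP and control. Over all tested genes these medians were 0.001, -0.008 and 0.001. Without regard to sign, the Kcn medians were 0.171, 0.101 and 0.173, against 0.144, 0.121 and 0.124 over all tested genes.

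How tightly the data bound the rest is given by the 95% interval of each fold change. Between PLX3AP and control the interval lay within 2-fold in either direction for 56 of 81 genes and within 1.5-fold for 41. Between PLX3AP and 3AP these counts were 54 and 42, and between 3AP and control 58 and 40. The wide intervals in the plot of log2 fold changes belong mostly to genes with few counts, and to Kcne2, Kcnj13, Kcnip2 and Kcnc2. These varied strongly between libraries of the same group, and for Kcnip2 and Kcnc2 3AP replicate 2 stood apart.

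**Figure D1:**
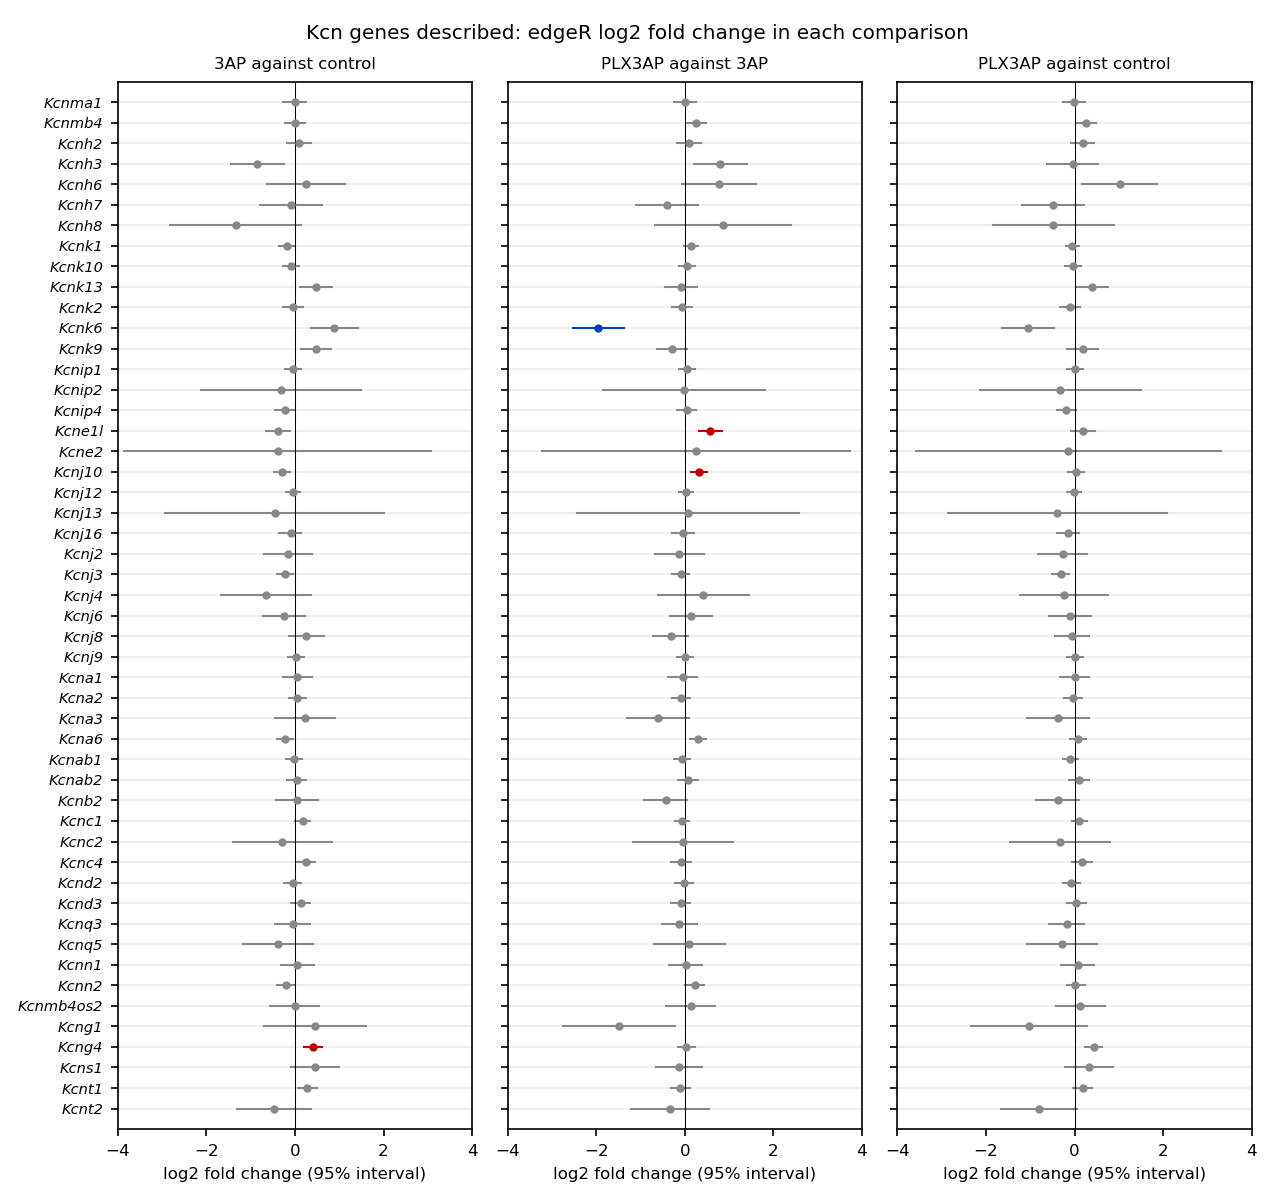
Log2 fold change (points) with its 95% interval (bars) from edgeR for 50 of the 81 tested Kcn genes, those described in the text, ordered by subfamily, in each of the 3 comparisons; red marks genes called higher, blue genes called lower and grey genes not called. Nearly all points lie close to 0, Kcnk6 lies farthest below 0 between PLX3AP and 3AP at -1.96, and Kcne2 has the widest intervals.

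The level of the family was set by few genes. In control cerebellum 5 genes had a mean of 100 TPM or more, 30 had 10 to 100 TPM, 32 had 1 to 10 TPM and 29 had less than 1 TPM. The top 3 genes held 28.8% and the top 10 held 56.1% of all Kcn transcripts in control libraries. The 5 highest included Kcnc1 (204 ± 10.5 TPM, SD, n = 3), the K2P gene Kcnk1 (198 ± 0.556 TPM), and the Kv1 beta subunit genes Kcnab1 (126 ± 13.2 TPM) and Kcnab2 (105 ± 20.8 TPM). The ranges of Kcnc1 and Kcnk1 overlapped. Kcnk1 lay above Kcnab1 without overlap. From Kcnab1 down to Kcng4, the twelfth gene, each gene overlapped the next in the order. The summed level of all 96 genes ran from 2312 to 2731 TPM in PLX3AP, from 2431 to 2543 TPM in 3AP and from 2250 to 2515 TPM in control, and the 3 ranges overlapped. Kcne3 and Kcnk16 had 0 counts in all 9 libraries, which allows up to 3 counts.

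**Figure D2:**
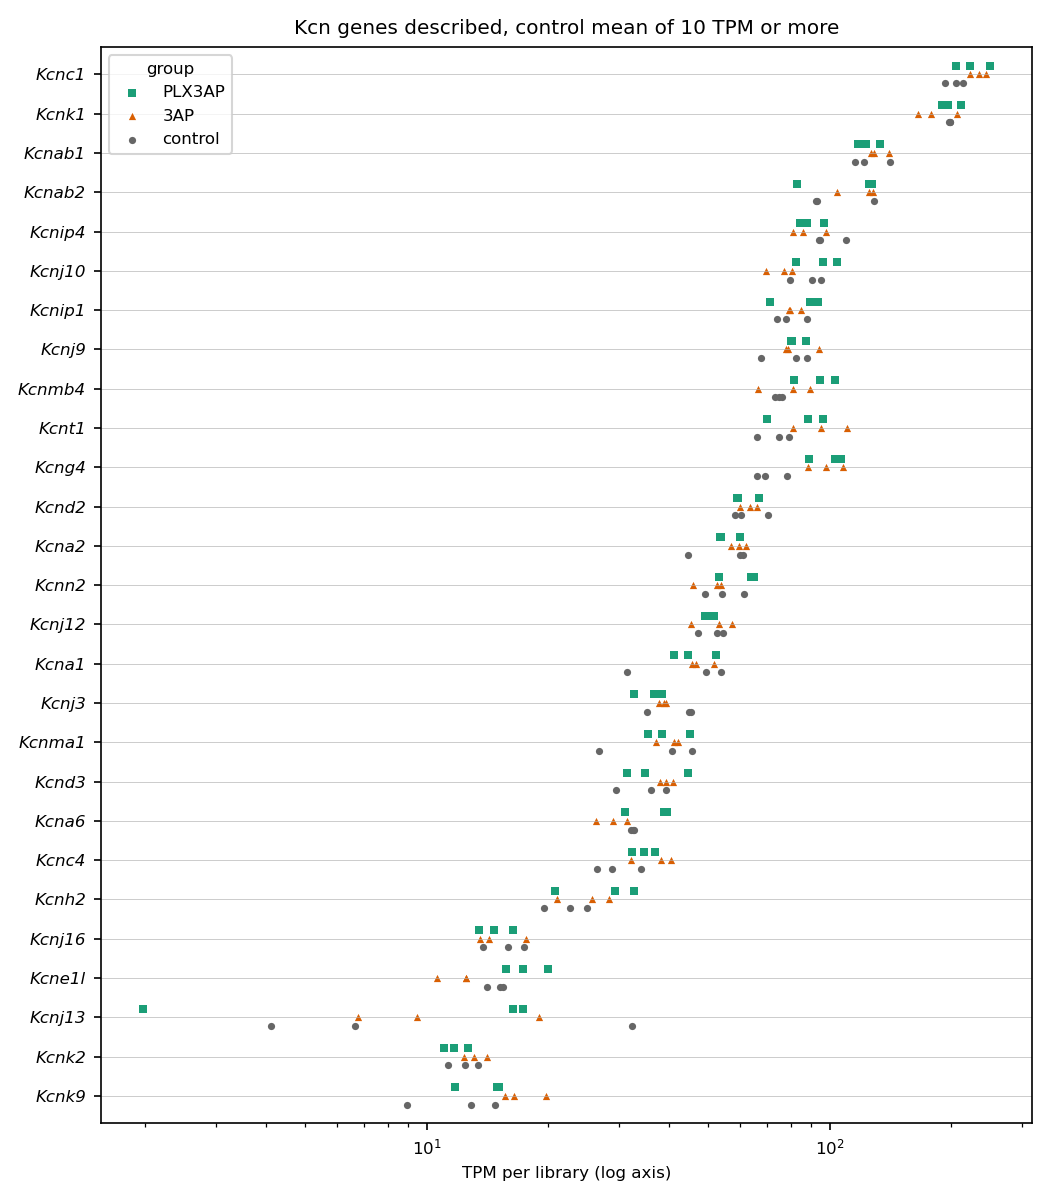
Level in TPM (log axis) of each library for 27 Kcn genes described in the text with a control mean of 10 TPM or more, from the highest control mean at the top; squares are PLX3AP, triangles 3AP and circles control. The groups overlap for most genes; for Kcng4 the control libraries sit to the left of all 6 others, and Kcnj13 spans the widest range.

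By subfamily, Kv3 genes held the most, with a summed level of 574 ± 69.7 TPM in PLX3AP, 577 ± 26.1 TPM in 3AP and 528 ± 38.5 TPM in control (SD, n = 3 each). This was 22.1% of the Kcn total in control. In control, Kir genes followed with 335 ± 18.9 TPM, K2P genes with 295 ± 7.07 TPM, Kv1 beta subunits with 274 ± 30.8 TPM and the Kv4-binding KChIP genes with 248 ± 18.4 TPM. The modifier Kv genes summed to 103, 124 and 115 TPM in the 3 PLX3AP libraries and to 115, 124 and 102 TPM in 3AP, against 93.7, 77.8 and 88.0 TPM in control. For this subfamily all 6 libraries of mice given 3-AP lay above the control libraries, and Kcng4 averaged 71.1 TPM in control, where the subfamily averaged 86.5 TPM. The Kcnh sum was 51.3 ± 10.4 TPM in PLX3AP, 44.4 ± 3.24 TPM in 3AP and 41.3 ± 2.39 TPM in control, with overlap. These sums are descriptions in TPM, and the tests that follow are on counts of single genes.

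**Figure D3:**
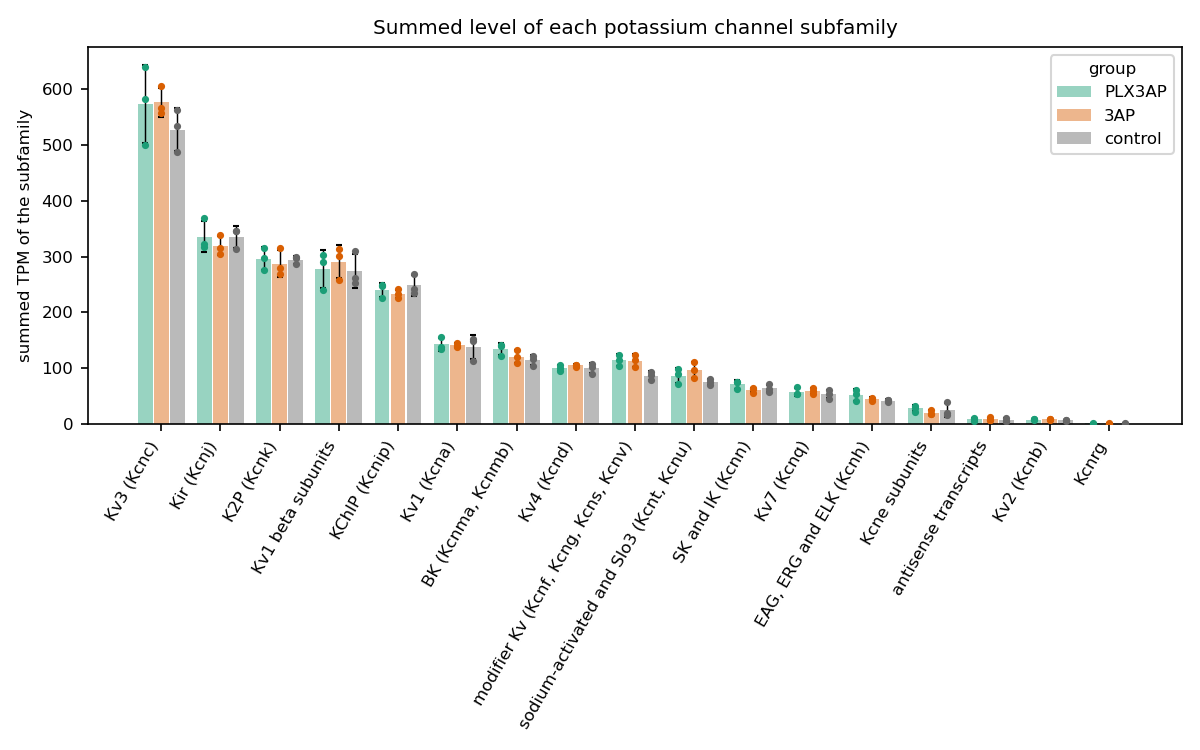
Summed level in TPM of each Kcn subfamily; bars are group means of 3 libraries, error bars SD and points single libraries, with PLX3AP left, 3AP in the middle and control right. Kv3 stands highest in each group, and the modifier Kv genes show control below both groups given 3-AP.

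The Kv3 genes encode the fast channels behind narrow spikes. Kcnc1 (chr7:46396497-46438704, GRCm38), which granule and Purkinje cells use, had 544, 547 and 597 CPM in PLX3AP, 560, 581 and 619 CPM in 3AP, and 537, 526 and 499 CPM in control. All control libraries lay below the others, yet the log2 fold change between 3AP and control of 0.17 ± 0.07 had an adjusted p of 0.25 in edgeR. Kcnc4 differed by 0.24 ± 0.10 between 3AP and control, with the same adjusted p of 0.25, and its groups overlapped.

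The Kv1 genes include Kcna1, Kcna2 and Kcna6, whose channels lie in basket cell terminals and along axons. Kcna2, the highest of them by TPM, had 396, 379 and 399 CPM in PLX3AP, 421, 389 and 433 CPM in 3AP, and 431, 426 and 341 CPM in control. Kcna1 had 106 ± 9.85 CPM in PLX3AP, 110 ± 8.04 CPM in 3AP and 106 ± 24.1 CPM in control. Neither was called in any comparison, and the lowest edgeR adjusted p of the pair was 0.81. Kcna6 had 92.3, 109 and 105 CPM in PLX3AP, 80.7, 89.7 and 79.2 CPM in 3AP, and 98.3, 100.1 and 92.3 CPM in control. Its 3AP libraries were the lowest 3 of the 9. The log2 fold change was 0.30 ± 0.08 between PLX3AP and 3AP (edgeR adjusted p = 0.080, and 0.024 to 0.40 over 16 alternatives) and -0.22 ± 0.08 between 3AP and control (edgeR adjusted p = 0.18). It was called between PLX3AP and 3AP by DESeq2 and without PLX3AP replicate 1. Kcna3, a channel of T cells and activated microglia, was low, with 1.66 ± 0.445 CPM in PLX3AP, 2.52 ± 0.551 CPM in 3AP and 2.14 ± 0.724 CPM in control. Its log2 fold change between PLX3AP and 3AP was -0.61 ± 0.32, with an interval of -1.30 to 0.09. Of the beta subunit genes, which tune Kv1 inactivation, Kcnab1 differed by -0.07 ± 0.08 between PLX3AP and 3AP and by -0.03 ± 0.08 between 3AP and control.

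Kv4 channels carry the transient current of granule cell bodies, and KChIP proteins are their calcium-binding partners. Kcnd2 had 188 ± 22.4 CPM in PLX3AP, 191 ± 8.13 CPM in 3AP and 198 ± 15.3 CPM in control. Its intervals reached no farther than -0.27 and 0.18 in any of the 3 comparisons. Kcnd3 had 114 ± 11.9 CPM in PLX3AP, 122 ± 4.25 CPM in 3AP and 111 ± 13.4 CPM in control, and its groups overlapped. Of the KChIP genes, Kcnip4 had 129, 112 and 101 CPM in PLX3AP and 103, 106 and 122 CPM in 3AP, against 139, 121 and 129 CPM in control. Its 3AP libraries overlapped control only between 3AP replicate 3 and control replicate 2, and the log2 fold change of -0.23 ± 0.10 had an edgeR adjusted p of 0.26. Kcnip1 differed by -0.04 ± 0.08 between 3AP and control.

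Kv2 channels form the slow delayed rectifier, and the modifier Kv subunits assemble with Kv2 subunits without forming channels of their own. Kcng4, which encodes the modifier Kv6.4 (chr8:119623854-119635680, minus strand), was the gene called between 3AP and control. It had 215, 247 and 227 CPM in PLX3AP and 230, 243 and 203 CPM in 3AP, against 182, 156 and 173 CPM in control. All 6 libraries of mice given 3-AP lay above the 3 control libraries, while PLX3AP and 3AP overlapped. The fitted level was 1.32-fold higher in 3AP than in control, with a 95% interval of 1.16 to 1.51. This was a log2 fold change of 0.40 ± 0.09, with an edgeR adjusted p of 0.019. Between PLX3AP and control it was 0.43 ± 0.09, with an edgeR adjusted p of 0.12, so the call was not made there. The unadjusted edgeR p was 0.00035 there and 0.00062 between 3AP and control. Adjustment was made within each comparison, and 20 and 820 of all tested genes passed in these. Between PLX3AP and 3AP the log2 fold change was 0.03 ± 0.09, with an interval of -0.16 to 0.22. The call between 3AP and control was lost without 3AP replicate 1, 3AP replicate 2 or control replicate 2, with log2 fold changes of 0.34 to 0.48 and adjusted p-values of 0.0079 to 0.093 over the 6 fits that left out 1 library. Over all 16 alternative fits the adjusted p ran from 0.0012 to 0.10. The comparisons share libraries, so these values are not independent of each other. In bulk tissue, more RNA per cell and more cells of a type cannot be told apart.

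Kcnb2, a Kv2 gene, differed by 0.04 ± 0.22 between 3AP and control and by -0.43 ± 0.23 between PLX3AP and 3AP, with an edgeR adjusted p of 0.51. Of the 9 modifier genes tested, Kcng4 was the gene called, and the other 8 had log2 fold changes of -0.38 to 0.46 between 3AP and control. Kcng1 was below 1 CPM in all libraries but 3AP replicate 1, with 2, 7 and 7 counts in PLX3AP, 23, 13 and 9 counts in 3AP, and 7, 17 and 8 counts in control. Its log2 fold change of -1.48 ± 0.58 between PLX3AP and 3AP had an edgeR adjusted p of 0.30.

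Promoter windows are shown for 3 of the 4 called genes, because none was available for Kcnk6. RefSeq windows (GRCm38.p6), from 250 bases before to 50 after a transcript start, matched 70 of the 96 genes. For Kcng4 the window is chr8:119635631-119635930 on the minus strand, for Kcnj10 chr1:172340960-172341259 on the plus strand, and for Kcne1l chrX:142306149-142306448 on the minus strand. Each is printed 5′ to 3′, with capitals for matches, on either strand, to any of 3 motifs: TATAAA (the TATA box), GGGCGG (the GC box bound by Sp1) and TTCNNNGAA (the core bound by STAT factors).
Kcng4: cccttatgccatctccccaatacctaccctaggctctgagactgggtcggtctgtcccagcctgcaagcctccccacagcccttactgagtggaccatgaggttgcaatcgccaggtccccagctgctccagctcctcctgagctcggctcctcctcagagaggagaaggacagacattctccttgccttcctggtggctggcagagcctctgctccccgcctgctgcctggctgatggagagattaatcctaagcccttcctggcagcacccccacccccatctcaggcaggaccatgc
Kcnj10: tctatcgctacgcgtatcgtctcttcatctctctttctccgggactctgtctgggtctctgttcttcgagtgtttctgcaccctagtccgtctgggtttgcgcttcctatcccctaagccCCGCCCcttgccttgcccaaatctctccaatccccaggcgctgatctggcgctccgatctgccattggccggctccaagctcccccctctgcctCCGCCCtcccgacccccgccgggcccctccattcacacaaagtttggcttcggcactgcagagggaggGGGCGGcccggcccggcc
Kcne1l: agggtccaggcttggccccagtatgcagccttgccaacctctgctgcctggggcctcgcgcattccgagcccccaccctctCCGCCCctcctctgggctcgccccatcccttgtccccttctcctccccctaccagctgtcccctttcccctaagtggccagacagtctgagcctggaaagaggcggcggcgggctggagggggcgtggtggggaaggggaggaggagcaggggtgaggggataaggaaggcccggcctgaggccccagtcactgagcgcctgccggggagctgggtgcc
The GC box matched 0 times in the Kcng4 window, 3 times in that of Kcnj10 and 1 time in that of Kcne1l. The other motifs were not among the letters of these 3 windows. The RefSeq start of Kcne1l lies inside the gene as GENCODE draws it. The GC box occurred in 35.7% of all 32851 windows and in 48.4% of the 95 windows of Kcn genes. TATAAA occurred in 13.6% of all windows and in 5.3% of Kcn windows, and TTCNNNGAA in 8.3% and 8.4%. Motif matches do not overlap one another in these windows.

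Kv7 channels carry the M-current that limits repetitive firing, and Kcne proteins are single-span subunits that modify Kv channels. Kcne1l, also called Kcne5 (chrX:142304752-142306294, minus strand), had 13.1, 15.9 and 13.1 CPM in PLX3AP and 8.54, 9.74 and 9.89 CPM in 3AP, against 12.1, 12.4 and 12.2 CPM in control. The 3AP libraries were the lowest 3 and the PLX3AP libraries the highest 3, without overlap. The log2 fold change between PLX3AP and 3AP was 0.58 ± 0.12 (95% interval 1.24-fold to 1.80-fold higher), with an edgeR adjusted p of 0.017. Between 3AP and control the log2 fold change was -0.38 ± 0.12, with an edgeR adjusted p of 0.11, and between PLX3AP and control 0.20 ± 0.12. The call was lost without PLX3AP replicate 2 or 3AP replicate 1, with adjusted p-values of 0.021 to 0.11 over the 6 fits that left out 1 library, and of 0.0033 to 0.11 over all 16 alternatives. Kcnq3, a subunit of M-current channels, differed by -0.12 ± 0.18 between PLX3AP and 3AP and by -0.05 ± 0.18 between 3AP and control.

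The Kcnh genes encode EAG, ERG and ELK channels, of which ERG channels shape Purkinje cell firing. The highest by TPM, Kcnh2 (ERG1), had 55.3 ± 8.66 CPM in PLX3AP, 52.0 ± 6.77 CPM in 3AP and 48.9 ± 3.66 CPM in control, and was called in no comparison. Kcnh7 (ERG3) ranged from 7.44 to 11.8 CPM in PLX3AP, from 7.74 to 16.9 CPM in 3AP and from 9.85 to 16.7 CPM in control, with overlap. Kcnh3, an ELK gene, had 2.86, 2.76 and 3.67 CPM in PLX3AP, 2.21, 1.12 and 1.99 CPM in 3AP, and 2.75, 3.75 and 3.07 CPM in control. The 3AP libraries were the lowest 3. Its log2 fold change was 0.80 ± 0.28 between PLX3AP and 3AP (edgeR adjusted p = 0.19) and -0.85 ± 0.28 between 3AP and control (edgeR adjusted p = 0.12). In TPM, PLX3AP replicate 2 was listed at 8.38 for Kcnh3, far above the other 8 libraries, with no such rise in its counts, which is why groups are compared on counts here. Fold changes past 2-fold occurred in low genes: Kcnh8 between 3AP and control (-1.34 ± 0.69), Kcng1 and Kcnk6 between PLX3AP and 3AP, and Kcng1 (-1.03 ± 0.60), Kcnh6 (1.02 ± 0.39) and Kcnk6 between PLX3AP and control. Of these, Kcnk6 between PLX3AP and 3AP passed the test.

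Calcium-activated channels end trains of spikes. Kcnma1, the pore-forming BK gene, had 238 ± 12.5 CPM in PLX3AP, 238 ± 7.45 CPM in 3AP and 240.2 ± 45.5 CPM in control, and the interval of its log2 fold change between PLX3AP and 3AP was -0.25 to 0.25. Kcnmb4, the neuronal BK beta subunit gene, had 68.2, 81.7 and 72.3 CPM in PLX3AP, 64.6, 69.3 and 52.7 CPM in 3AP, and 60.9, 59.6 and 64.9 CPM in control. PLX3AP lay above control in every library, with a log2 fold change of 0.26 ± 0.10 and an edgeR adjusted p of 0.47. On the other strand, the antisense transcript Kcnmb4os1 lies within this gene and Kcnmb4os2 overlaps the start of its transcription. Strandedness of the counting is not given in the sources used here, so reads of the 3 cannot be told apart with certainty. Kcnn2, the SK2 gene of Purkinje cells, had 48.1, 52.0 and 49.6 CPM in PLX3AP, 46.2, 39.9 and 42.6 CPM in 3AP, and 42.5, 51.2 and 53.7 CPM in control. PLX3AP lay above 3AP without overlap, by 0.22 ± 0.10 on the log2 scale, with an edgeR adjusted p of 0.38. Kcnn1 (SK1) had 8.95 ± 1.97 CPM in PLX3AP, 8.84 ± 1.13 CPM in 3AP and 8.53 ± 0.537 CPM in control. Kcnn4, the intermediate-conductance channel of microglia and T cells, had 15 counts in PLX3AP, 23 in 3AP and 19 in control over 3 libraries each, too few to test. Among sodium-activated channels, Kcnt1 had 256, 209 and 245 CPM in PLX3AP and 226, 247 and 286 CPM in 3AP, against 213, 220.1 and 192 CPM in control. Its 3AP libraries lay above control, with a log2 fold change of 0.28 ± 0.10 and an edgeR adjusted p of 0.16. Kcnt2 was below 1.5 CPM in every library, with log2 fold changes of -0.81 ± 0.40 between PLX3AP and control and -0.47 ± 0.39 between 3AP and control, neither of them called.

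Kir channels hold the resting potential, and Kir4.1, from Kcnj10, carries potassium uptake in glia. Kcnj10 (chr1:172341210-172374085, plus strand) had 288, 322 and 329 CPM in PLX3AP and 262, 226 and 263 CPM in 3AP, against 320, 309 and 291 CPM in control. The 3 lowest libraries were those of 3AP, and PLX3AP overlapped control. The level was 1.25-fold higher in PLX3AP than in 3AP (95% interval 1.11 to 1.41), a log2 fold change of 0.32 ± 0.08 with an edgeR adjusted p of 0.048. Between 3AP and control it was -0.29 ± 0.08, with an edgeR adjusted p of 0.062, and between PLX3AP and control 0.03 ± 0.08, with an interval of -0.15 to 0.21. The call was the least steady of the 4. It held in 1 of the 6 fits that left out a library, that without PLX3AP replicate 1, and was lost without PLX3AP replicate 2 or 3 and without each 3AP replicate, with adjusted p-values of 0.021 to 0.19. Over all 16 alternatives it was called in 5, and the adjusted p ran from 0.0058 to 0.44.

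Beside Kcnj10, astrocyte and Bergmann glia markers moved in part. Of 10 such markers, Aqp4, Slc7a10 and Hopx were called lower in 3AP than in control, with log2 fold changes of -0.49, -0.69 and -0.76, and Hopx was called higher in PLX3AP than in 3AP by 0.59. The other 7 were not called, and the median of the list was 0.04 between PLX3AP and 3AP and -0.04 between 3AP and control. The 10 markers summed to 1393 to 1593 TPM in PLX3AP, 1316 to 1460 TPM in 3AP and 1395 to 1609 TPM in control. Of 10 oligodendrocyte markers, 1 was called higher in PLX3AP than in 3AP (median log2 fold change 0.30) and 2 were called lower in 3AP than in control (median -0.29). They summed to 5845 to 6856 TPM in PLX3AP, 5068 to 5903 TPM in 3AP and 5233 to 6302 TPM in control. Of 10 markers of oligodendrocyte precursors, which also hold Kir4.1, 1 was called higher in PLX3AP than in 3AP (median -0.09), 2 lower in PLX3AP than in control (median -0.32) and 3 lower in 3AP than in control (median -0.43). Their sums were 108 to 133 TPM in PLX3AP, 102 to 117 TPM in 3AP and 129 to 142 TPM in control. No marker of these 3 lists was at 0 in any library. Their part in the Kcnj10 result was not tested. Kcnj16, which encodes Kir5.1, the partner of Kir4.1 in glia, had 31.0 ± 2.17 CPM in PLX3AP, 32.0 ± 4.71 CPM in 3AP and 34.4 ± 2.68 CPM in control, with a log2 fold change of -0.04 ± 0.11 between PLX3AP and 3AP.

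The G protein-gated Kir genes are those through which GABA-B receptors act on granule and Purkinje cells. Kcnj9 (GIRK3), the highest of them by TPM, had 182 ± 2.93 CPM in PLX3AP, 181.5 ± 15.9 CPM in 3AP and 179 ± 16.4 CPM in control. Kcnj3 (GIRK1) had 94.9, 82.2 and 79.8 CPM in PLX3AP and 91.2, 85.4 and 96.1 CPM in 3AP, against 107, 113 and 98.3 CPM in control. All 6 libraries of mice given 3-AP lay below control. The log2 fold changes against control were -0.31 ± 0.09 in PLX3AP and -0.23 ± 0.09 in 3AP, with edgeR adjusted p-values of 0.29 and 0.19. Without PLX3AP replicate 1, Kcnj3 and Kcng4 were both called between PLX3AP and control, where 0.900% of all tested genes were called. Kcnj6 (GIRK2) had 11.4 ± 2.07 CPM in PLX3AP, 10.4 ± 0.695 CPM in 3AP and 12.3 ± 3.84 CPM in control. Kcnj12 (Kir2.2) had 106 ± 2.59 CPM in PLX3AP, 104 ± 7.77 CPM in 3AP and 107 ± 1.30 CPM in control. Kcnj2 (Kir2.1) had 4.34 ± 1.00 CPM in PLX3AP, 4.70 ± 1.51 CPM in 3AP and 5.22 ± 0.610 CPM in control. No Kir2 gene was called. Kcnj8, the Kir6.1 gene of pericytes, had 4.39, 6.73 and 5.68 CPM in PLX3AP and 7.07, 7.40 and 6.60 CPM in 3AP, against 5.75, 5.24 and 6.58 CPM in control. Its log2 fold change between PLX3AP and 3AP was -0.32 ± 0.18, with an edgeR adjusted p of 0.54.

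K2P channels are the leak channels. Kcnk6, the TWIK-2 gene (chr7:29221926-29232515, minus strand), showed the widest difference that passed. TWIK-2 is known from mouse macrophages, where the potassium it lets out takes part in activation of the NLRP3 inflammasome. Kcnk6 had 0.879, 0.768 and 1.19 CPM in PLX3AP and 4.32, 3.26 and 3.49 CPM in 3AP, against 2.26, 1.69 and 2.00 CPM in control. In CPM the 3 groups did not overlap, with PLX3AP lowest and 3AP highest. In TPM both treated groups overlapped control. Control replicate 1, at 1.58 TPM, lay within the 3AP range of 1.40 to 1.80 TPM. PLX3AP replicate 1, at 0.75 TPM, lay above control replicate 2, at 0.71 TPM. These values rest on few reads, 16, 17.0 and 25 estimated counts in PLX3AP and 88, 67 and 72 in 3AP, against 46, 33 and 41 in control. The level was 3.88-fold lower in PLX3AP than in 3AP (95% interval 2.60 to 5.78), a log2 fold change of -1.96 ± 0.27 with an edgeR adjusted p of 0.00073. The call held in all 6 fits that left out a library, with log2 fold changes of -2.16 to -1.83 and adjusted p-values of 0.0019 to 0.0068. It was lost in the 3 fits on TPM, where the largest adjusted p of the 16 alternatives was 0.19. Between 3AP and control the log2 fold change was 0.89 ± 0.25 (edgeR adjusted p = 0.062) and between PLX3AP and control -1.06 ± 0.27 (edgeR adjusted p = 0.27).

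Markers of microglia, blood leukocytes and endothelium also differed between the groups. Of 15 microglia markers, 9 were called higher in 3AP than in control, and 10 were called lower in PLX3AP than in 3AP, where the median log2 fold change of the list was -1.55. Csf1r fell by 1.55 on the log2 scale in that comparison, with an edgeR adjusted p of 0.00069, and Cx3cr1 by 1.76, with 0.00041. Between PLX3AP and control 0 of 15 were called by edgeR, 10 had an unadjusted p under 0.05, DESeq2 called 3 and limma-voom 0. Of 7 tested leukocyte markers, 5 were called higher in 3AP than in control and 6 lower in PLX3AP than in 3AP. Between PLX3AP and control edgeR called 0 of these 7, and 0 had an unadjusted p under 0.05. Their list summed to 5.92 to 10.98 TPM in PLX3AP, 49.0 to 123 TPM in 3AP and 2.93 to 17.8 TPM in control. Plac8, Retnlg, Cd3e, Cd3g, Ccr2, Ms4a1 and Nkg7 were at 0 in some library. Of 10 endothelial markers, 7 were called higher and 1 lower in 3AP than in control. Between PLX3AP and 3AP, 1 was called higher and 5 lower in PLX3AP. The part of these cell types in the Kcnk6 result was not tested.

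**Figure D4:**
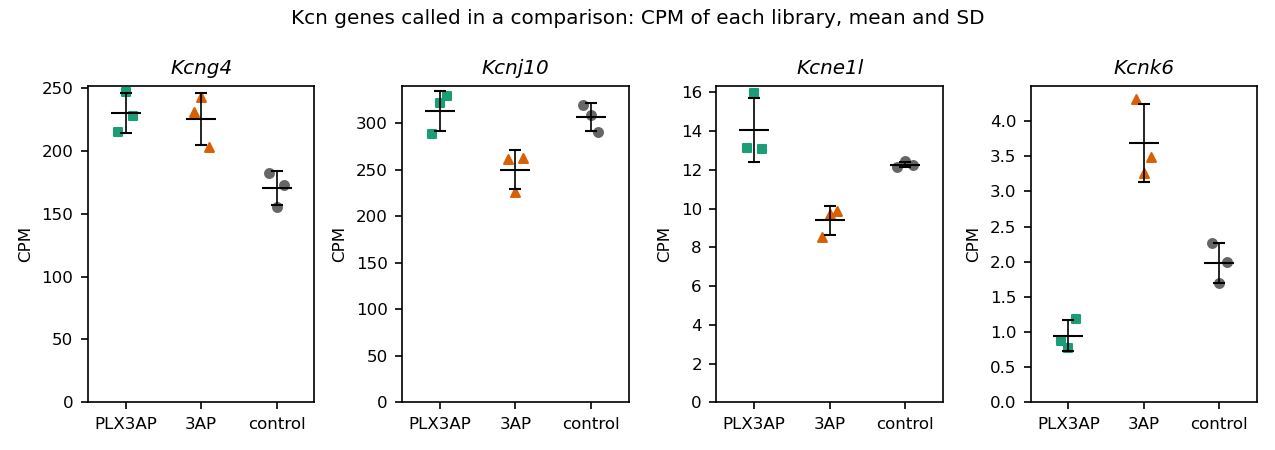
CPM of each library (points), group mean (wide line) and SD (bars) for the 4 Kcn genes called in a comparison, with PLX3AP left, 3AP in the middle and control right; every axis starts at 0. Kcng4 is lowest in control, Kcnj10 and Kcne1l are lowest in 3AP, and Kcnk6 is highest in 3AP and lowest in PLX3AP.

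Kcnk13, the THIK-1 gene that carries the resting potassium current of microglia, was not called in any comparison. It had 6.48, 8.18 and 7.78 CPM in PLX3AP and 8.30, 7.40 and 8.05 CPM in 3AP, against 5.80, 4.62 and 6.63 CPM in control. PLX3AP and 3AP overlapped, and 3AP lay above control. The log2 fold change was -0.08 ± 0.16 between PLX3AP and 3AP, with an interval of -0.44 to 0.28. The difference was 0.48 ± 0.17 between 3AP and control (edgeR adjusted p = 0.15) and 0.40 ± 0.17 between PLX3AP and control (edgeR adjusted p = 0.50).

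Other K2P genes belong to neurons and astrocytes. Kcnk1, the TWIK-1 gene and the highest K2P gene by TPM, had 242, 244 and 244 CPM in PLX3AP and 214, 242 and 205 CPM in 3AP, against 243, 249 and 261 CPM in control. 3AP lay below control without overlap, by -0.19 ± 0.07 on the log2 scale with an edgeR adjusted p of 0.20. Kcnk9, the TASK-3 gene of granule cells, had 107, 81.4 and 93.7 CPM in PLX3AP and 113, 99.3 and 133 CPM in 3AP, against 85.0, 96.7 and 66.1 CPM in control. 3AP lay above control, by 0.48 ± 0.15, with an edgeR adjusted p of 0.13. Kcnk2 (TREK-1) differed by -0.06 ± 0.11 and Kcnk10 (TREK-2) by 0.05 ± 0.08 between PLX3AP and 3AP.

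Some Kcn genes varied between libraries rather than between groups. Kcnj13 (Kir7.1) and Kcne2 are subunits of the choroid plexus epithelium. Kcnj13 had 17.8, 1.72 and 15.3 CPM in PLX3AP, 9.47, 16.4 and 7.13 CPM in 3AP, and 4.22, 6.88 and 34.3 CPM in control. Kcne2 had 14.7, 0.226 and 8.59 CPM in PLX3AP, 4.76, 10.5 and 4.27 CPM in 3AP, and 0.540, 2.67 and 22.4 CPM in control. Both were lowest in PLX3AP replicate 2 and highest in control replicate 3, as were the 10 choroid plexus markers, none of which was at 0 in any library. Across the 9 libraries the correlation of log2 CPM with the summed markers was 0.98 for Kcnj13 and 0.99 for Kcne2, whereas the other tested Kcn genes ran from -0.83 to 0.40 (Kcns1). These correlations are over libraries that share their groups and carry no test. Without PLX3AP replicate 2 the log2 fold change of Kcnj13 between PLX3AP and 3AP was 0.58 ± 0.93, against 0.07 ± 1.04 with it. That of Kcne2 was 0.83 ± 1.31 without it and 0.25 ± 1.45 with it, and none of these was called. Between 3AP and control, leaving out 1 library gave log2 fold changes of -0.90 to 0.99 for Kcnj13 and -0.95 to 2.02 for Kcne2. Over the 16 alternative fits of that comparison the lowest adjusted p was 0.06 for Kcnj13 and 0.59 for Kcne2.

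In 3AP replicate 2, 4 of the 81 tested Kcn genes (4.94%) lay below 0.5 times their lowest value elsewhere, where 0.186% of all tested genes were. They were the KChIP gene Kcnip2, the Kv3 gene Kcnc2, the Kv7 gene Kcnq5 and the Kir2.3 gene Kcnj4, named after their values were seen except Kcnq5. Kcnip2 had 4.50, 7.46 and 4.87 CPM in PLX3AP, 8.15, 0.390 and 8.44 CPM in 3AP, and 7.61, 7.60 and 5.90 CPM in control. Kcnc2 had 16.3, 21.7 and 19.9 CPM in PLX3AP, 27.0, 6.04 and 26.5 CPM in 3AP, and 23.4, 26.3 and 23.1 CPM in control. In the other 8 libraries Kcnip2 ran from 4.50 to 8.44 CPM, and all 3 PLX3AP libraries of Kcnc2 lay below control and below the other two 3AP libraries. With all libraries the log2 fold change of Kcnc2 between PLX3AP and 3AP was -0.04 ± 0.48. Without 3AP replicate 2 it was -0.48 ± 0.13, with an edgeR adjusted p of 0.087. For Kcnip2 the corresponding values were -0.01 ± 0.78 and -0.56 ± 0.22, with an edgeR adjusted p of 0.33 without that library. In 3AP against control, leaving it out turned the sign of both, to 0.14 ± 0.13 from -0.29 ± 0.48 for Kcnc2 and to 0.24 ± 0.22 from -0.31 ± 0.77 for Kcnip2. For Kcnq5 the log2 fold change between PLX3AP and 3AP was -0.29 ± 0.23 without that library and 0.10 ± 0.36 with it, and for Kcnj4 it was -0.03 ± 0.35 without and 0.42 ± 0.47 with it. Between 3AP and control, Kcnq5 differed by less than 0.01 without it and by -0.39 ± 0.36 with it, and Kcnj4 by -0.22 ± 0.34 without and -0.66 ± 0.47 with it. None of these values was called. A list of 12 markers of the midbrain roof, chosen after this library was seen to stand apart, summed to 141 to 192 TPM in PLX3AP, 236, 66.6 and 231 TPM in 3AP, and 211 to 227 TPM in control. How much of the tissue next to the cerebellum each sample held was not tested.

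**Figure D5:**
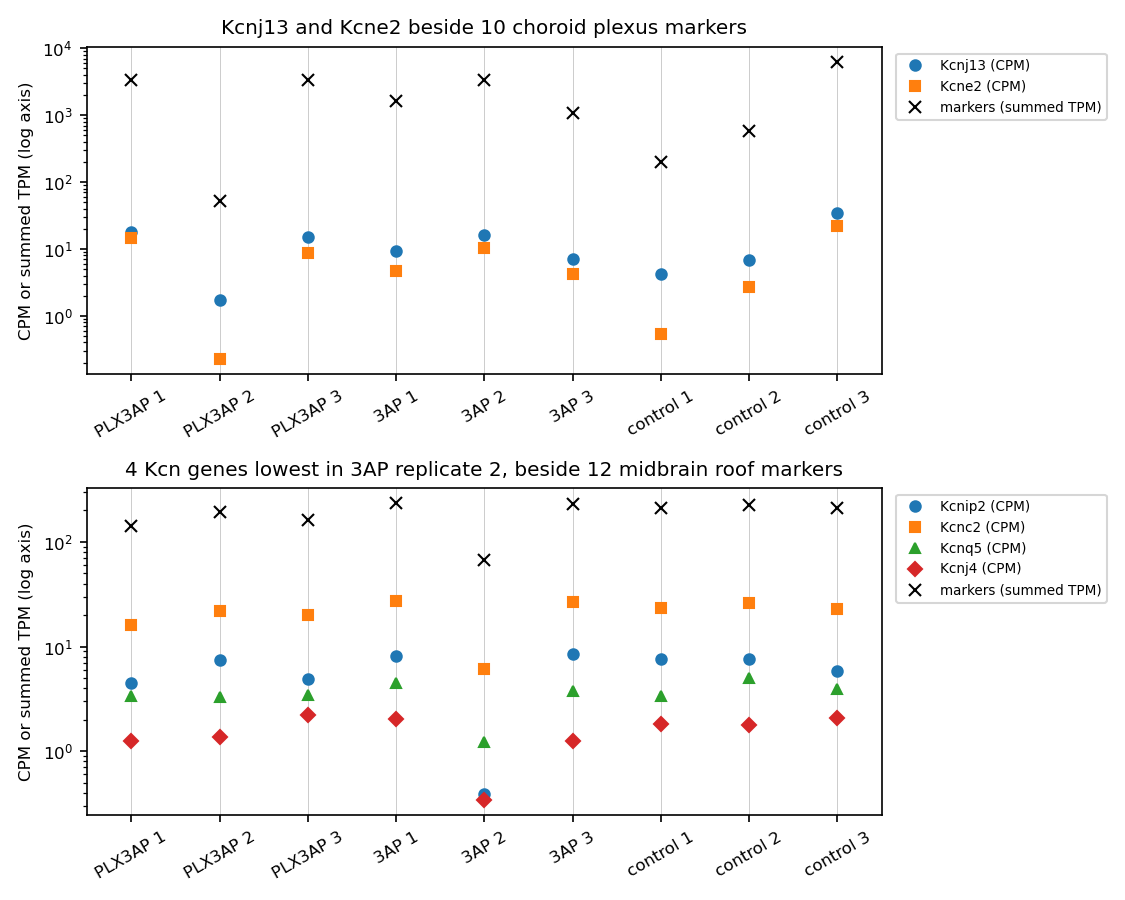
Upper panel, CPM of Kcnj13 and Kcne2 in each library beside the summed TPM of 10 choroid plexus markers; lower panel, CPM of Kcnip2, Kcnc2, Kcnq5 and Kcnj4 beside the summed TPM of 12 midbrain roof markers (log axes). The upper genes follow the choroid plexus markers from library to library within each group, and the lower genes and markers are lowest in 3AP replicate 2. The lower genes were picked for their low values in that library and the markers were chosen after it was seen, so their agreement there carries no test.

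The proteins that work with potassium channels were examined in 2 further lists. Of 30 partner proteins, such as the Kv4 subunits Dpp6 and Dpp10, the Kv1 clustering proteins Cntnap2 and Lgi1, and the GABA-B receptor genes Gabbr1 and Gabbr2, 28 were tested. In edgeR 0 of 28 were called in each of the 3 comparisons. Unadjusted p-values were under 0.05 for 5 between 3AP and control, 1 between PLX3AP and 3AP and 4 between PLX3AP and control, while DESeq2 called 1, 0 and 0 and limma-voom 0 in each. The lowest adjusted p was that of Kctd12, an auxiliary subunit of GABA-B receptors, at 0.051 between 3AP and control, with a log2 fold change of -0.32 ± 0.08. Of 17 genes of the sodium-potassium pump, its FXYD regulators and the potassium-chloride transporters, 16 were tested and Fxyd5, a pump regulator, was the gene called. Fxyd5 had 5.11, 5.69 and 9.40 CPM in PLX3AP and 22.1, 20.3 and 18.5 CPM in 3AP, against 4.96, 6.32 and 7.26 CPM in control. 3AP lay above all other libraries. The log2 fold change was -1.59 ± 0.21 between PLX3AP and 3AP (edgeR adjusted p = 0.00088) and 1.71 ± 0.22 between 3AP and control (edgeR adjusted p = 0.00054). The neuronal chloride exporter gene Slc12a5 had 594 CPM in PLX3AP, 557 CPM in 3AP and 624 CPM in control on average, and differed by -0.16 ± 0.09 between 3AP and control.

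Markers of cerebellar neurons were set beside these values. In 3AP against control, edgeR called 0 of 10 markers each for Purkinje cells, granule cells and the interneurons of the molecular layer and Golgi cells. Unadjusted p-values were under 0.05 for 1, 4 and 0 of them, and DESeq2 called 0, 1 and 0. Their median log2 fold changes were -0.06, -0.16 and 0.05. Of the 10 endothelial markers, 7 were called higher and 1 lower in 3AP than in control, and 1 higher and 5 lower in PLX3AP than in 3AP. The part of these cell types in the Kcn values was not tested.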

How the data were processed

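Total RNA of cerebellum was sequenced in 9 libraries of 3 groups, assigned by the treatment label. Per the submitters' processing notes, fastp, HISAT2, StringTie and RSEM were used on mm10, with versions, annotation and strandedness not given in the sources used here. Expected counts, the estimated reads per gene, were deposited without normalisation (28.7 to 30.8% of values above 0 are not whole). The authors also scaled them to transcript length as TPM. Estimation divides reads shared by paralogs. TPM of low genes also moves with the estimated isoform length, so TPM served for levels and counts for tests.

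Rows without a gene name (0.526 to 0.66% of counts) were left out. Counts were rounded and fitted in R 4.3.3 with edgeR 4.0.16: filterByExpr (16634 genes), TMM scaling (factors 0.986 to 1.02), and a robust quasi-likelihood model with 1 term per group over all 9 libraries. P-values are two-sided. SEs were taken from the fold change and its F statistic, and intervals are 95%. CPM are TMM-scaled. Library totals of 18452256 to 22358447 limit genes with few counts most; floors (3 counts) cover counting error only.

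The genes, subfamilies and lists were chosen with earlier results of these data known. Genes named are those called, the highest of each subfamily, a list with known cerebellar roles, and the 3 lowest p-values among those not called per comparison, some of which are not reported here; Kcnab2, Kcnb2, Kcnc2, Kcnh6, Kcnh8, Kcnip2, Kcnj4 and Kcns1 were named after their values were seen. Alternatives were RLE factors, DESeq2 1.42.0, limma-voom and limma-trend on log2(TPM + 1) or log2(TPM + 0.1) (limma 3.58.1; genes at 0.5 TPM in 3 libraries, or no filter), no count filter, 2 groups only, a replicate block, leaving out each library, and, chosen after seeing the data, a choroid plexus covariate. Gene positions are from GENCODE M21 (GRCm38). Replicates of a group correlated at 0.987 to 0.993 (log2 CPM across genes, which are not independent) and differed beyond sampling noise. PLX3AP replicate 1 differed most from its group. Its chi-square per degree of freedom was 28.6 against replicate 2 and 27.6 against replicate 3. All other pairs within a group had 4.83 to 20.15.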

Additional observations from a re-analysis of the deposited data

How the results depend on the processing

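No Kcn fold change that was called, in the main fit or in an alternative, changed direction under any alternative run. Between 3AP and control, where edgeR called 1 Kcn gene, DESeq2 called 3 (Kcng4, Kcnj10 and Kcnk9), limma-voom 2 (Kcng4 and Kcnk6), the fit without a count filter 2 (Kcng4 and Kcnj10), and the fit on log2(TPM + 1) without a filter 0. Over all tested genes edgeR called 4.93%, DESeq2 6.38%, limma-voom 5.03%, the unfiltered count fit 3.47% and the unfiltered TPM fit 1.47%. Leaving out 1 library gave 0 to 1 Kcn genes, against 2.75% to 4.70% of all tested genes. Between PLX3AP and 3AP, where 3 were called, DESeq2 called 4, adding Kcna6, the fits on log2(TPM + 1) and log2(TPM + 0.1) called 1 each, Kcne1l, the fit on TPM without a filter 0, and the fit on the 2 groups alone 1, Kcnk6. Over all tested genes the shares were 3.73% in edgeR, 4.63% in DESeq2, 2.57%, 2.15% and 1.26% in these TPM fits, and 3.40% with 2 groups. Leaving out 1 library gave 1 to 4 Kcn genes, against 2.36% to 4.20% of all tested genes. The count was 1 without PLX3AP replicate 2 or without 3AP replicate 1. Between PLX3AP and control, where 0 were called, DESeq2 and the fit without a count filter called 1 each, Kcng4. Over all tested genes edgeR called 0.120%, DESeq2 0.661% and the fit without a count filter 0.249%. Leaving out 1 library gave 0 to 2 Kcn genes. The 2 came without PLX3AP replicate 1, where calls over all tested genes rose from 20 to 153 (0.900%). Without any other single library this share was 0.0412% to 0.0883%. The choroid plexus covariate, chosen after seeing the data, left 1, 2 and 0 calls in these comparisons. With it, the shares over all tested genes were 4.05%, 3.37% and 0.0782%. In the TPM fits the log2 fold change of Kcnk6 between PLX3AP and 3AP was -0.75 with a pseudocount of 1 and -1.44 with 0.1, against -1.96 on counts. TPM and CPM are different units, so only the relation of the groups within each can be compared. The means were 0.533 TPM in PLX3AP and 1.56 TPM in 3AP, and 0.947 CPM in PLX3AP and 3.69 CPM in 3AP. The causes of the differences between fits were not tested. Among 46 tested named genes, with 138 fold changes, 10 alternative values gained a call and 23 lost one.

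Replicate numbers are shared by the groups, but libraries with the same number did not deviate together (correlations of deviations from group means of -0.255 to 0.12 over 9 pairs, against -0.144 to 0.314 over 18 pairs with other numbers). Deviations within a group constrain one another, so these correlations cannot exclude a batch shared by libraries with the same number. With the replicate block 0 Kcn genes were called between 3AP and control, 2 between PLX3AP and 3AP, and 0 between PLX3AP and control. The shares over all tested genes were 3.49%, 3.03% and 0.0601%. Depth limits genes such as Kcnk6, at under 100 counts per library.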
